A study of Mus musculus with 36 samples.

Results

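Messenger RNA was measured for 7 genes through which muscle precursor cells recognise, adhere to and fuse with each other: the membrane fusion genes *Mymk* and *Mymx*, the cadherins *Cdh15* and *Cdh2*, the junctional adhesion molecules *Jam2* and *Jam3*, and the integrin subunit *Itga7*. They were found by gene name in a table of read counts for 55416 genes, and each name matched 1 gene. The cells were C2C12 myotubes, the multinucleate cells that this mouse myoblast line forms once serum is lowered. On day 3 of differentiation they were transfected with an antisense locked nucleic acid (LNA), either a negative control (control myotubes) or one against the long non-coding RNA *Tug1* (*Tug1* KD myotubes), and on day 4 they were used for 1 of 3 conditions. Rest myotubes had electrodes in the medium without current, EPS 0h myotubes were harvested straight after 3 h of electrical pulse stimulation (EPS, 13 V at 66 Hz with pulses of 2 ms), and EPS 3h myotubes were harvested after a further 3 h. This gave 6 groups of 6 libraries, 36 in all. Levels are given as CPM, counts per 1000000 reads counted in the library after scaling, and all 7 genes were above 1 CPM in every library, so all 7 were tested.

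Myoblasts first line up and adhere, then join their membranes to form a syncytium. *Mymk* encodes myomaker, a protein with several membrane-spanning segments that lets the outer membrane leaflets mix, and *Mymx* encodes the micropeptide myomixer, which opens the fusion pore. M-cadherin (*Cdh15*) and N-cadherin (*Cdh2*) hold neighbouring cells together through calcium-dependent contacts and are tied to actin by catenins, JAM-B (*Jam2*) and JAM-C (*Jam3*) bind each other across the cell gap, and integrin alpha 7 (*Itga7*) pairs with integrin beta 1 as a laminin receptor that anchors the muscle fibre to its basement membrane.

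The genes are on separate chromosomes of GRCm39, with coordinates from the GENCODE annotation. *Mymk* (ENSMUSG00000009214) spans 10.6 kb on chromosome 2 from 26951627 to 26962228 on the minus strand. *Mymx* (ENSMUSG00000079471) spans 1.79 kb on chromosome 17 from 45911239 to 45913028 on the minus strand. *Cdh15* (ENSMUSG00000031962) spans 21.3 kb on chromosome 8 from 123574705 to 123596048 on the plus strand. *Cdh2* (ENSMUSG00000024304) spans 242 kb on chromosome 18 from 16700793 to 16942381 on the minus strand. *Jam2* (ENSMUSG00000053062) spans 52.5 kb on chromosome 16 from 84570764 to 84623269 on the plus strand. *Jam3* (ENSMUSG00000031990) spans 61.3 kb on chromosome 9 from 27005652 to 27066915 on the minus strand. *Itga7* (ENSMUSG00000025348) spans 24.5 kb on chromosome 10 from 128769621 to 128794169 on the plus strand. *Cdh2* was the longest and *Mymx* the shortest of the 7. Exons of *Jam2* overlap those of *Atp5pf*, and exons of *Jam3* those of *Ncapd3*, in both cases on the opposite strand. The libraries were stranded, but the strand setting of the counting is not given in the sources used here, so reads shared by these pairs cannot be told apart and the values of *Jam2* and *Jam3* are uncertain to that extent.

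The libraries held between 17005079 and 24181167 reads counted on genes. Of these between 110 and 255 fell on *Jam3*, the member with the fewest, and between 13694 and 44002 on *Itga7*, the member with the most. *Tug1* itself was lower in KD than in control myotubes in each condition (log2FC -0.83 at Rest with FDR = 0.000915, -0.57 at EPS 0h with FDR = 0.0178 and -0.51 at EPS 3h with FDR = 0.0414). The cells were myotubes by their markers: 22 myotube genes summed to between 23855 and 36664 CPM per library, against at most 3.54 CPM for 5 adipocyte genes, 14.1 CPM for 4 endothelial genes, 6.93 CPM for 5 leukocyte genes and 95.7 CPM for 5 osteoblast genes. The summed level of 10 genes of undifferentiated myoblasts or reserve cells, which express adhesion genes too, was 255 to 314 CPM in Rest control, 209 to 238 CPM in Rest KD and 139.6 to 169 CPM in EPS 3h control myotubes. The 6 genes of dividing cells summed to 109 to 186 CPM over all libraries. None of the genes of these lists was at 0 in all libraries. The median was under 1 CPM for 5 of 5 adipocyte, 3 of 4 endothelial, 4 of 5 leukocyte and 3 of 5 osteoblast genes. The same held for 1 of 22 myotube genes (*Tnnc2*) and 2 of 10 genes of undifferentiated myoblasts. In bulk RNA fewer cells of a type and less RNA per cell cannot be told apart.

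The study describes each group as triplicate wells from 2 independent experiments, and its labels do not say which replicate came from which. In all 6 groups the leading component of the 1000 most variable genes parted replicates 1 to 3 from replicates 4 to 6, though only narrowly in EPS 3h KD myotubes. It held 48.5% to 62.4% of the variance. Each called difference of a member is therefore also given within these sets. Differences of *Tug1* and of the pathway genes named below are given over all 6 libraries of a group only, and whether they hold in each set is not shown. The p values measure the spread between wells and sets, not between animals or cell lines. The main fit treats the 6 wells of a group as independent, though they come from 2 experiments. Each FDR therefore rests on 2 independent experiments and not on 6. On this component replicate 3 of both EPS 3h groups lay apart from replicates 1 and 2, toward replicates 4 to 6. In EPS 3h KD myotubes it lay beside them, at -0.14 against -0.18 for replicate 5. Replicates 1 and 2 of that group were at 0.48 and 0.60. Calls of members that change without this replicate are named. *Jam3* was the gene most tied to the sets: replicates 4 to 6 lay under replicates 1 to 3 in all 6 groups without overlap, with log2 ratios of the set means from -0.68 to -0.36. The sets did not overlap in 3 of 6 groups for *Mymk*, *Cdh15*, *Cdh2* and *Itga7*, and in 2 of 6 for *Mymx* and *Jam2*.

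Levels were compared between genes per kilobase of annotated exon (RPKM, the CPM divided by the exon length in kilobases, as mean ± SD, n = 6). In Rest control myotubes *Mymk* was the most abundant, at 354 ± 51.9 RPKM. *Itga7* followed at 199 ± 15.0 RPKM, then *Cdh15* at 97.2 ± 13.0 RPKM and *Mymx* at 50.5 ± 14.4 RPKM. Below these lay *Cdh2* at 13.8 ± 0.634 RPKM, *Jam2* at 8.38 ± 0.638 RPKM and *Jam3* at 1.42 ± 0.314 RPKM. Every neighbouring pair in this order was separated without overlap of its libraries, the closest being *Cdh2* and *Jam2* with a ratio of means of 1.65. Partners that act together thus differed in level, *Mymk* lying above *Mymx*, and *Jam2* above *Jam3* with a ratio of means of 5.91. Of the 2 cadherins *Cdh15* lay above *Cdh2*. Exon lengths here are unions over all annotated transcripts, which lowers the RPKM of genes with many unused exons.

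**Figure D1:**
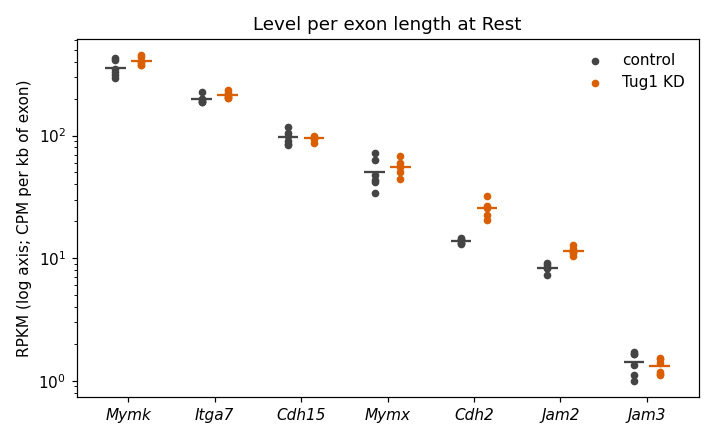
RPKM (log axis) of the 7 genes in the 6 Rest control (grey) and 6 Rest *Tug1* KD (orange) libraries, points being libraries and lines group means. Control means run from 354 RPKM for *Mymk* to 1.42 RPKM for *Jam3*, and *Cdh2* is the gene with the widest step between the colours.

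The comparison of *Tug1* KD with control myotubes within each condition addresses which of these genes differ in level when *Tug1* is knocked down. *Cdh2* was higher in KD myotubes in all 3 conditions and *Jam2* at Rest and EPS 0h, while the fusion genes *Mymk* and *Mymx*, and *Cdh15*, *Jam3* and *Itga7*, did not pass the test in any. Thus 2 of the 7 members were called at Rest (FDR under 0.05 in edgeR's quasi-likelihood test, where 10.0% of the 13995 genes tested were called), 2 of 7 at EPS 0h (14.3% of all genes) and 1 of 7 at EPS 3h (11.5%). The median log2FC of the 7 was 0.14, 0.12 and 0.13, against -0.027, -0.0025 and -0.012 over all genes tested.

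For *Cdh2*, N-cadherin, the lowest, median and highest of the 6 libraries at Rest were 114, 119 and 127 CPM in control and 178, 224 and 276 CPM in KD myotubes. All KD libraries lay above every control library, and the mean was 1.85-fold higher (log2FC 0.89, SE 0.082, FDR = 1.16e-09). At EPS 0h the same values were 111, 129 and 144 CPM in control and 221, 229 and 236 CPM in KD myotubes (log2FC 0.83, SE 0.082, FDR = 4.40e-09), and at EPS 3h 132, 136 and 158 CPM and 197, 217 and 234 CPM (log2FC 0.62, SE 0.082, FDR = 1.34e-06). The groups were again apart in both conditions, with the control libraries low and the KD libraries high. The rise held in each replicate set: the log2FC at Rest, EPS 0h and EPS 3h was 0.71, 0.72 and 0.51 in replicates 1 to 3 and 1.05, 0.97 and 0.73 in replicates 4 to 6, with the highest FDR of these 6 at 0.00297. The level of *Cdh2* per exon length moved from 13.8 ± 0.634 RPKM to 25.6 ± 3.86 RPKM at Rest, still well under that of *Cdh15* at 94.8 ± 4.43 RPKM.

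*Cdh15*, M-cadherin, the more abundant of the 2 cadherins, had 437, 491 and 612 CPM in control and 448, 497 and 516 CPM in KD libraries at Rest. The groups overlapped, and the log2FC was -0.037 (95% confidence interval -0.36 to 0.29, FDR = 0.941). It was -0.15 at EPS 0h (FDR = 0.635) and -0.094 at EPS 3h (FDR = 0.807). No call was made for *Cdh15* with *Tug1* KD in any condition.

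*Jam2*, JAM-B, had 80.8, 92.1 and 102 CPM in Rest control and 115, 125 and 141 CPM in Rest KD libraries. Every KD library lay above every control library (log2FC 0.45, SE 0.11, FDR = 0.00509), so that 2 of 7 members, *Cdh2* and *Jam2*, had no overlap at Rest, where 8.07% of all genes tested had none. At EPS 0h the values were 77.2, 115 and 132 CPM in control and 121, 152 and 175 CPM in KD myotubes (log2FC 0.45, SE 0.11, FDR = 0.00426). Here the lowest KD library fell within the control range, and *Cdh2* was the 1 member without overlap (7.94% of all genes), as it was at EPS 3h (4.62%). At EPS 3h *Jam2* had 89.5, 100.2 and 123 CPM and 107, 127 and 149 CPM and did not pass the test (log2FC 0.31, SE 0.11, FDR = 0.0664). It did pass with the replicate number as a block (log2FC 0.30, FDR = 0.0160), as in 3 of 10 alternatives in all. The correlation of same-numbered libraries cannot tell pairing by number from the replicate sets. Fitted to replicates 1 to 3 alone, the log2FC at Rest, EPS 0h and EPS 3h was 0.41, 0.40 and 0.31, and fitted to replicates 4 to 6 alone 0.49, 0.54 and 0.30. At EPS 0h and EPS 3h the KD library was above the control library of the same number in 6 of 6 cases.

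*Jam3*, JAM-C, the partner of JAM-B, did not pass the test in any condition. It had 6.80, 10.3 and 11.8 CPM in Rest control and 7.68, 8.82 and 10.4 CPM in Rest KD libraries, which overlapped (log2FC -0.11, 95% interval -0.47 to 0.24, FDR = 0.814). The log2FC was -0.078 at EPS 0h (FDR = 0.838) and -0.12 at EPS 3h (FDR = 0.772). With a mean of 9.70 CPM in Rest control it was also the member with the least depth.

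Of the fusion genes, *Mymk* had 465, 534 and 667 CPM in Rest control and 587, 621 and 709.5 CPM in Rest KD libraries. The KD libraries lay in or above the upper part of the control range (log2FC 0.19, SE 0.14, FDR = 0.515), and the 95% interval was -0.091 to 0.47. *Mymx* had 59.7, 79.3 and 126 CPM and 77.5, 97.4 and 119 CPM and the groups overlapped (log2FC 0.14, SE 0.23, FDR = 0.815; 95% interval -0.30 to 0.58). At EPS 0h and EPS 3h the log2FC was 0.12 (FDR = 0.661) and 0.13 (FDR = 0.643) for *Mymk*, and -0.0024 (FDR = 0.997) and -0.072 (FDR = 0.901) for *Mymx*. The intervals of *Mymx* are wide, and at Rest replicates 1 to 3 alone gave 0.52 where replicates 4 to 6 alone gave -0.18.

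*Itga7*, the laminin-binding integrin subunit, had 1556, 1617 and 1889 CPM in Rest control and 1665, 1734 and 1964 CPM in Rest KD libraries. The groups overlapped and the log2FC was 0.10 (95% interval -0.20 to 0.40, FDR = 0.799). It was 0.15 at EPS 0h (FDR = 0.578) and 0.17 at EPS 3h (FDR = 0.580).

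**Figure D2:**
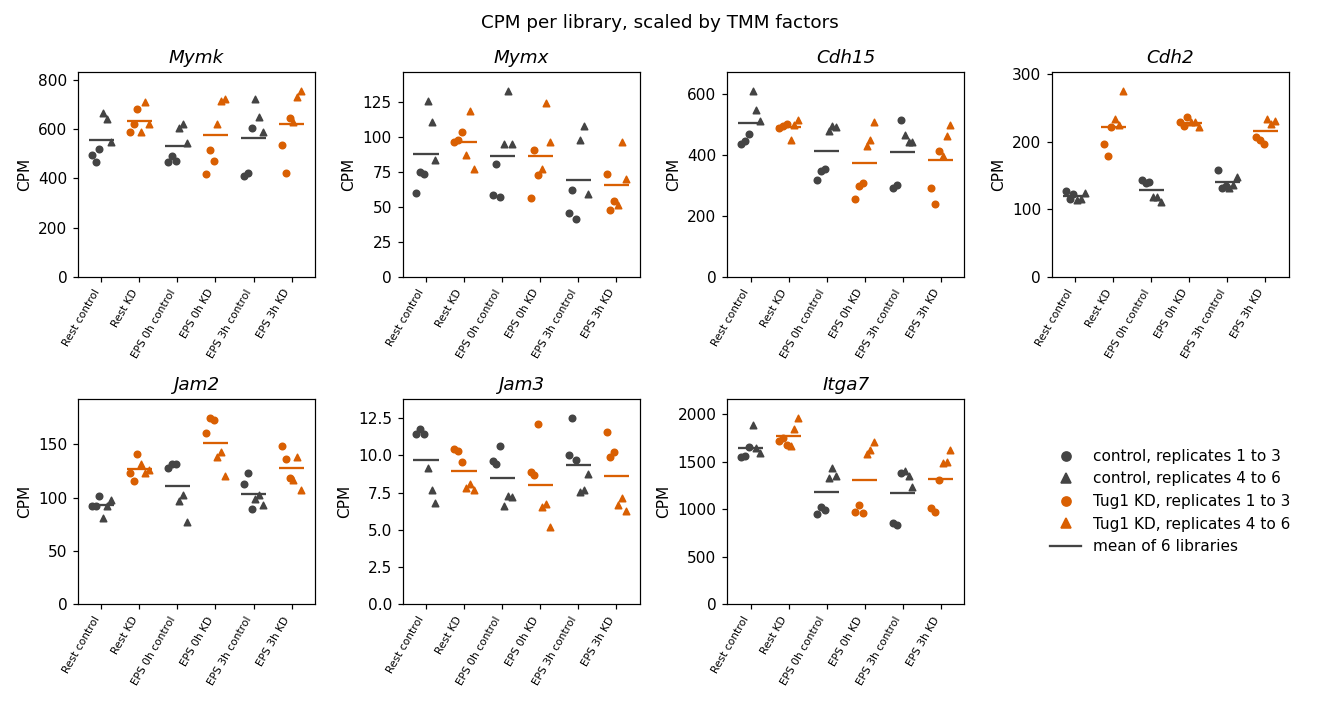
CPM (linear axis from 0) of each gene in each of the 36 libraries, in order of condition with control in grey and *Tug1* KD in orange, circles for replicates 1 to 3, triangles for replicates 4 to 6 and lines for group means. *Cdh2* is higher in all 3 orange groups, with means of 222, 228 and 216 CPM against 120.0, 128 and 140.3 CPM, and the *Jam3* triangles sit under its circles in every group.

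**Figure D3:**
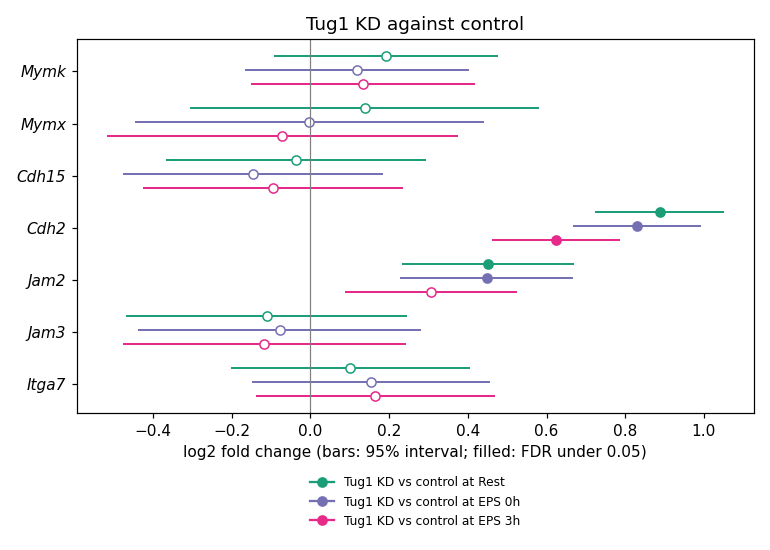
Log2 fold change of *Tug1* KD against control for each gene (rows) in 3 conditions (colours), with unadjusted 95% confidence intervals as bars and filled points where the FDR was under 0.05. Filled points are those of *Cdh2* in 3 conditions (0.89, 0.83 and 0.62) and of *Jam2* at Rest and EPS 0h (0.45 and 0.45).

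The members that rose with *Tug1* KD were among the longer ones, *Cdh2* at 242 kb and *Jam2* at 52.5 kb, but *Jam3* at 61.3 kb was not called. Over all genes tested, those called higher with KD had a median length of 87.9 kb at Rest, 93.6 kb at EPS 0h and 91.9 kb at EPS 3h, those called lower 16.3, 13.9 and 16.5 kb, and all together 24.4 kb. The part of gene length in the rise of *Cdh2* and *Jam2* was not tested, nor was that of the lower summed level of undifferentiated myoblast markers in Rest KD myotubes (median 225 against 301 CPM). Of the 8 genes of this list tested, 0 were called higher and 2 lower, beside 776 higher and 625 lower of all 13995 genes tested.

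The comparison of EPS with Rest, made within control and within KD myotubes, addresses how the genes respond to stimulation that makes myotubes contract. *Itga7* was lower at both times and with both LNAs, *Cdh2* was higher at EPS 3h in control myotubes, and *Mymx* was lower at EPS 3h in KD myotubes. In control myotubes 1 of 7 members was called at EPS 0h, where 38.9% of all genes tested were called, and 2 of 7 at EPS 3h (52.0%). In KD myotubes it was again 1 of 7 at EPS 0h (45.6%) and 2 of 7 at EPS 3h (52.1%). In none of these 4 comparisons was the members' share above that of all genes. The EPS 0h and EPS 3h comparisons share their Rest libraries. The study describes no Rest myotubes kept for the further 3 h of recovery. At EPS 3h the effect of stimulation therefore cannot be told apart from that of the added time in culture.

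*Itga7* had 1556, 1617 and 1889 CPM as lowest, median and highest library in Rest control, 951, 1177 and 1431 CPM in EPS 0h control and 837, 1289.7 and 1402 CPM in EPS 3h control myotubes. Every stimulated library lay under every Rest library at both times. The log2FC was -0.48 at EPS 0h (SE 0.15, FDR = 0.0119) and -0.49 at EPS 3h (SE 0.15, FDR = 0.00760), from a mean of 1650.2 ± 124 to 1180.2 ± 212 and 1175 ± 262 CPM (SD, n = 6). In KD myotubes the values were 1665, 1734 and 1964 CPM at Rest, 962, 1313 and 1706 CPM at EPS 0h and 975, 1397 and 1628 CPM at EPS 3h. The stimulated libraries were again the lower ones, with an overlap at EPS 0h and none at EPS 3h (log2FC -0.43, FDR = 0.0215, and -0.43, FDR = 0.0194).

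The fall of *Itga7* was of unequal size in the replicate sets. In replicates 1 to 3 of the control myotubes its log2FC was -0.69 at EPS 0h and -0.62 at EPS 3h (FDR = 0.00153 and 0.00196), and -0.32 and -0.36 in replicates 4 to 6 (FDR = 0.0180 and 0.00432). In KD myotubes it was -0.78 and -0.63 in replicates 1 to 3 and -0.16 and -0.25 in replicates 4 to 6, and the value at EPS 0h in replicates 4 to 6 did not pass the test (FDR = 0.247). The libraries show the same: at EPS 0h in KD myotubes *Itga7* was 962 to 1046 CPM in replicates 1 to 3 and 1580.0 to 1706 CPM in replicates 4 to 6. At EPS 3h replicate 3 was closer to replicates 4 to 6 than to replicates 1 and 2 in both LNA groups, and without it the log2FC was -0.55 in control and -0.45 in KD myotubes. The difference between the sets was not tested. With EPS the summed level of the undifferentiated myoblast markers in control myotubes had a median of 255 CPM at EPS 0h and 146 CPM at EPS 3h, against 301 CPM at Rest, and its part in the fall of *Itga7* was not tested. The sum does not stand for every gene of the list: of the 8 tested, 4 were called higher and 3 lower at EPS 0h (median log2FC 0.42), and 0 higher and 4 lower at EPS 3h (median log2FC -0.28). Of all 13995 genes tested, 2872 were called higher and 2569 lower at EPS 0h, and 3651 higher and 3626 lower at EPS 3h.

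*Cdh2* in control myotubes had 114, 119 and 127 CPM at Rest, 111, 129 and 144 CPM at EPS 0h and 132, 136 and 158 CPM at EPS 3h. At EPS 0h the groups overlapped (log2FC 0.10, FDR = 0.354), and at EPS 3h all 6 libraries lay above the Rest libraries (log2FC 0.23, SE 0.081, FDR = 0.0195). Replicates 1 to 3 alone gave 0.23 (FDR = 0.0517) and replicates 4 to 6 alone 0.24 (FDR = 0.0297), and without a filter on low counts 0.14 (FDR = 0.321). Of the 7 members, 1 had no overlap at EPS 0h in control myotubes (*Itga7*; 22.0% of all genes tested) and 2 at EPS 3h (*Itga7* and *Cdh2*; 28.9%). In KD myotubes 0 had no overlap at EPS 0h (22.5%) and 1 at EPS 3h (*Itga7*; 29.8%). The rise of *Cdh2* at EPS 3h depended on the scaling: with scaling by library size only, which shifted the median of all genes by -0.17, it was 0.057 (FDR = 0.547). In KD myotubes, where *Cdh2* was already at 222 CPM at Rest, the log2FC was 0.041 at EPS 0h (FDR = 0.706, and -0.045 with library size only) and -0.037 at EPS 3h (FDR = 0.729, and -0.20 with library size only, FDR = 0.0283, where the median of all genes shifted by -0.16).

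*Cdh15* had negative values in all 4 comparisons and did not pass the test in any: the log2FC was -0.28 (FDR = 0.185) and -0.30 (FDR = 0.133) in control and -0.39 (FDR = 0.0540) and -0.36 (FDR = 0.0721) in KD myotubes at EPS 0h and EPS 3h. In KD myotubes its libraries had 448, 497 and 516 CPM at Rest and 255, 368 and 508 CPM at EPS 0h. The 3 lowest of the latter were replicates 1 to 3, and 5 of 6 lay under the Rest mean. With the replicate number as a block, *Cdh15* passed the test in the comparisons where all same-numbered libraries correlated. These were EPS 0h in control (log2FC -0.30, FDR = 0.0266), EPS 3h in control (-0.32, FDR = 0.0152) and EPS 0h in KD myotubes (-0.44, FDR = 0.00126). Other fits called *Cdh15* too: in KD myotubes 7 of 9 alternatives at EPS 0h and 6 of 10 at EPS 3h, and in control myotubes 2 of 10 and 4 of 11. Within the sets the values for EPS 0h in KD myotubes were -0.78 for the first 3 replicates and -0.076 for the others, and for EPS 3h -0.64 and -0.11.

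*Mymx* in KD myotubes had 77.5, 97.4 and 119 CPM at Rest and 48.1, 62.5 and 96.6 CPM at EPS 3h. All 6 EPS 3h libraries lay under the Rest mean, though the ranges overlapped (log2FC -0.56, SE 0.23, FDR = 0.0374). The log2FC in replicates 1 to 3 was -0.74 (FDR = 0.00327) and in replicates 4 to 6 -0.37 (FDR = 0.234), and the call was lost without replicate 3 of EPS 3h (-0.54, FDR = 0.0529). In control myotubes the libraries had 59.7, 79.3 and 126 CPM at Rest and 41.7, 60.7 and 108 CPM at EPS 3h and each EPS 3h library lay under the Rest library of its number. There the log2FC was -0.35 (FDR = 0.198), and -0.38 with the replicate block (FDR = 0.0329). At EPS 0h it was -0.021 in control (FDR = 0.949) and -0.16 in KD myotubes (FDR = 0.579).

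*Mymk*, the other fusion gene, had 465, 534 and 667 CPM at Rest, 466, 516 and 620.2 CPM at EPS 0h and 409, 596 and 722 CPM at EPS 3h in control myotubes. The 3 ranges overlapped, and the log2FC was -0.063 at EPS 0h (95% interval -0.34 to 0.22) and 0.025 at EPS 3h (-0.26 to 0.31; -0.14 with library size only). In KD myotubes it was -0.14 (FDR = 0.455) and -0.032 (FDR = 0.869), and at EPS 0h replicates 1 to 3 alone gave -0.41 (FDR = 0.0230) and replicates 4 to 6 alone 0.10 (FDR = 0.558).

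*Jam2* had positive values at EPS 0h that did not pass the test, 0.26 in control (FDR = 0.0571) and 0.26 in KD myotubes (FDR = 0.0527), but did so with the replicate block (0.24, FDR = 0.0275, and 0.24, FDR = 0.0235). Its libraries had 77.2, 115 and 132 CPM in EPS 0h control and 121, 152 and 175 CPM in EPS 0h KD myotubes. The high ones were replicates 1 to 3 in both, at 128 to 132 CPM in control and 161 to 175 CPM in KD myotubes against 77.2 to 103 CPM and 121 to 143 CPM in replicates 4 to 6. Fitted alone, replicates 1 to 3 gave 0.45 and 0.44 (FDR = 0.00606 and 0.00474) and replicates 4 to 6 0.034 and 0.076 (FDR = 0.861 and 0.677). At EPS 3h the log2FC of *Jam2* was 0.15 in control (FDR = 0.251; -0.016 with library size only) and 0.0086 in KD myotubes (FDR = 0.955; -0.15 with library size only). *Jam3* lay between -0.20 and -0.053 over the 4 comparisons, with FDR values from 0.405 to 0.831.

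**Figure D4:**
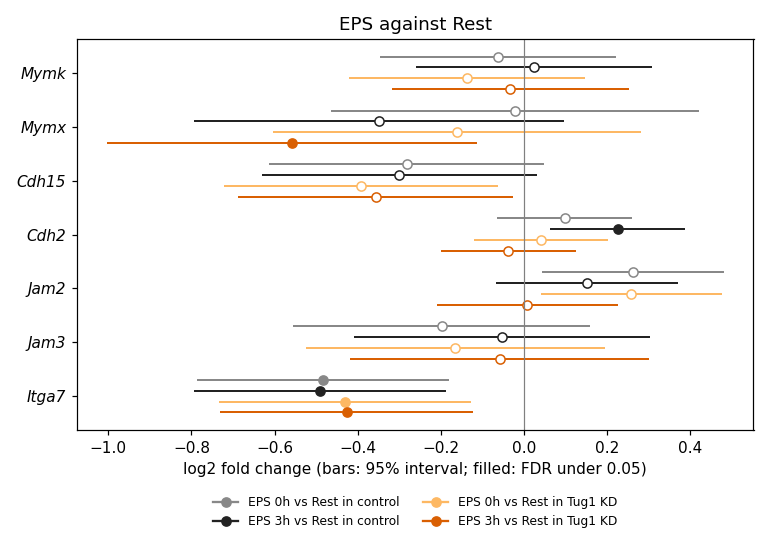
Log2 fold change of EPS against Rest for each gene (rows) at 2 times in control (grey and black) and *Tug1* KD myotubes (shades of orange), with unadjusted 95% confidence intervals as bars and filled points where the FDR was under 0.05. All 4 *Itga7* points are filled, from -0.49 to -0.43, and the other filled points are *Cdh2* at EPS 3h in control (0.23) and *Mymx* at EPS 3h in KD myotubes (-0.56).

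**Figure D5:**
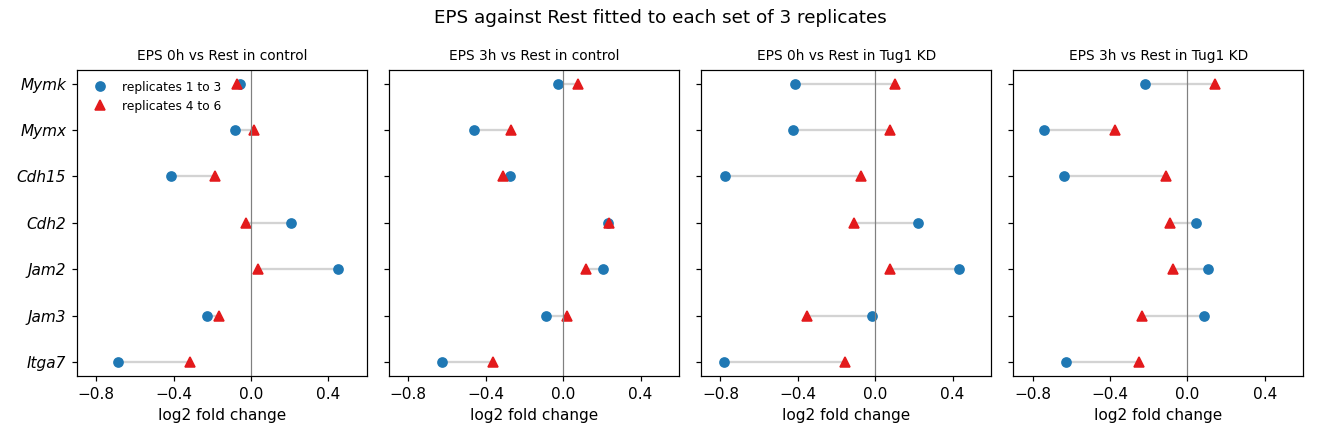
Log2 fold change of EPS against Rest in 4 comparisons (panels), fitted to replicates 1 to 3 (blue circles) or replicates 4 to 6 (red triangles) alone, with a line joining the fits of a gene. The circles of *Itga7* lie between -0.78 and -0.62 and its triangles between -0.36 and -0.16, while for *Cdh2* at EPS 3h in control the symbols coincide at 0.23 and 0.24.

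Between EPS 0h and EPS 3h 0 of 7 members were called, in control (where 16.6% of all genes tested were called) or in KD myotubes (15.7%), by edgeR. At an unadjusted p under 0.05 there were 0 in control and 1 in KD myotubes. The 1 was *Jam2* in KD myotubes, with 121, 152 and 175 CPM at EPS 0h and 107, 127 and 149 CPM at EPS 3h. Each EPS 3h library lay under the EPS 0h library of its number, and the log2FC was -0.25 (FDR = 0.129, and 0.0480 with the replicate block). In control myotubes it was -0.11 (FDR = 0.604). *Mymx* had -0.33 in control (FDR = 0.392) and -0.40 in KD myotubes (FDR = 0.270). For *Itga7* the values were -0.0067 and 0.0044, with 95% intervals of -0.31 to 0.29 in control and -0.30 to 0.31 in KD myotubes.

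Whether the response to EPS itself differed between KD and control myotubes was tested as an interaction. By edgeR 0 of 7 members were called at either time (0% of all genes tested at EPS 0h and 0.00715% at EPS 3h), and at an unadjusted p under 0.05 there were 0 at EPS 0h and 1 at EPS 3h. The 1 was *Cdh2*, with a log2 difference of the EPS 3h responses, KD minus control, of -0.26 (SE 0.12, 95% interval -0.49 to -0.037, FDR = 1.000). Replicates 1 to 3 alone gave -0.19 and replicates 4 to 6 alone -0.32. Of the other tools, DESeq2 and limma-voom also called 0 members for either interaction. For *Itga7* the interaction was 0.053 at EPS 0h (-0.37 to 0.48) and 0.064 at EPS 3h (-0.36 to 0.49), and for *Jam2* -0.0034 (-0.31 to 0.30) and -0.14 (-0.45 to 0.16).

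Apart from the groups, 3 of the members moved together from library to library. After removal of the group means of log2 CPM, Pearson's r over the 36 libraries was 0.951 between *Cdh15* and *Itga7*, 0.935 between *Mymk* and *Cdh15* and 0.906 between *Mymk* and *Itga7*. Removal of the means of group and replicate set left 0.915, 0.874 and 0.812. *Mymx* followed *Mymk* less closely (0.703, and 0.427 within the sets), and the 2 cadherins did not go together (-0.191 and -0.207). *Jam2* ran against *Itga7* (-0.769 and -0.574), and *Jam2* and *Jam3* shared 0.598, of which 0.196 was left within the sets. These are descriptions, since the values of a library share its depth, its scaling and its well.

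The genes whose log2 CPM was most like that of a member over all 36 libraries, by Pearson's r, were *Myom1* (0.943), *Atf6* (0.942) and *Ppm1l* (0.941) for *Cdh2*, and *Cul2* (0.943), *Zmym2* (0.940) and *Fut8* (0.938) for *Jam2*. For *Itga7* they were *Ano8* (0.970), *Ankrd13b* (0.970) and *Col18a1* (0.964), and for *Cdh15* *Ltbr* (0.976), *Lmna* (0.973) and *Ap1s1* (0.973). For *Mymk* they were *Nomo1* (0.930), *Sil1* (0.918) and *Traf4* (0.913). The nearest were less close for *Mymx*, *Cby1* (0.893), *Pdgfrl* (0.888) and *H1f2* (0.866), and for *Jam3*, *Aspa* (0.877), *Apool* (0.873) and *Yipf7* (0.866). *Myom1* encodes a structural protein of the sarcomere's M band and *Lmna* the nuclear lamins A and C.

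Genes of the same pathways, the members left out, were counted by the same test, and since scaling by library size only lowered the median log2FC of EPS, the counts under it are given too. They are to be read beside those over all 13995 genes tested: with *Tug1* KD 776 higher and 625 lower at Rest, 1155 higher and 850 lower at EPS 0h and 893 higher and 715 lower at EPS 3h, and in control myotubes 2872 higher and 2569 lower with EPS 0h and 3651 higher and 3626 lower with EPS 3h (2324 higher and 3479 lower, and 2675 higher and 5526 lower, with library size only). No list was tested against these. Of 17 regulators of membrane fusion, 3 were called higher and 0 lower with *Tug1* KD at Rest, 2 higher and 0 lower at EPS 0h and 1 higher and 0 lower at EPS 3h. *Dysf*, dysferlin of membrane repair, went from 57.0 to 121 CPM (log2FC 1.09, FDR = 9.69e-08) at Rest, and *Cav3*, the muscle caveolin, from 58.9 to 84.7 CPM (log2FC 0.52, FDR = 0.0231). In control myotubes 0 were called higher and 6 lower with EPS 0h and 0 higher and 6 lower with EPS 3h (0 higher and 6 lower, and 0 higher and 7 lower, with library size only), and in KD myotubes 1 higher and 5 lower with EPS 0h and 1 higher and 6 lower with EPS 3h. *Il4ra*, the receptor of a cytokine that recruits myoblasts to growing myotubes, went from 75.6 to 34.9 CPM (log2FC -1.12, FDR = 0.000731) at EPS 0h in control myotubes, and *Kirrel3*, an immunoglobulin-type adhesion protein, from 6.36 to 3.55 CPM (log2FC -0.84, FDR = 0.0122). Of 21 regulators of actin at the fusion site, 0 were called higher and 0 lower with *Tug1* KD at Rest, 4 higher and 2 lower at EPS 0h and 1 higher and 3 lower at EPS 3h. In control myotubes 7 were called higher and 2 lower with EPS 0h and 8 higher and 3 lower with EPS 3h (4 higher and 5 lower, and 6 higher and 6 lower, with library size only), and in KD myotubes 8 higher and 3 lower with EPS 0h and 9 higher and 5 lower with EPS 3h. *Trio*, a guanine nucleotide exchange factor that acts on the actin cytoskeleton, went from 213 to 358 CPM (log2FC 0.75, FDR = 0.000172) at EPS 3h in control myotubes, and *Elmo3*, which works with such exchange factors, from 2.94 to 1.12 CPM (log2FC -1.40, FDR = 1.01e-05).

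Among 8 further cadherins, 1 was called higher and 1 lower with *Tug1* KD at Rest, 1 higher and 1 lower at EPS 0h and 2 higher and 0 lower at EPS 3h. *Cdh13*, T-cadherin, which is held by a lipid anchor and has no cytoplasmic tail, went from 194 to 285 CPM (log2FC 0.56, FDR = 3.66e-05) at Rest, and *Cdh1*, E-cadherin of epithelia, from 13.5 to 7.35 CPM (log2FC -0.87, FDR = 0.00683). *Cdh13* thus moved with *Cdh2*, and *Cdh1*, at a low level, the other way. In control myotubes 2 were called higher and 0 lower with EPS 0h and 4 higher and 0 lower with EPS 3h (2 higher and 0 lower, and 2 higher and 1 lower, with library size only), and in KD myotubes 3 higher and 0 lower with EPS 0h and 4 higher and 0 lower with EPS 3h. *Cdh17* went from 0.782 to 8.05 CPM (log2FC 3.36, FDR = 1.71e-12) at EPS 3h in control myotubes, and *Cdh1* from 13.5 to 22.7 CPM (log2FC 0.75, FDR = 0.00384). Of 10 catenins and cadherin co-receptors, 2 were called higher and 0 lower with *Tug1* KD at Rest, 2 higher and 0 lower at EPS 0h and 3 higher and 0 lower at EPS 3h. *Cdon*, a co-receptor that signals from N-cadherin contacts in myoblasts, went from 165 to 231 CPM (log2FC 0.49, FDR = 0.0185) at Rest, and *Ntn1*, a netrin, from 56.0 to 77.5 CPM (log2FC 0.47, FDR = 0.0235). In control myotubes 2 were called higher and 2 lower with EPS 0h and 3 higher and 3 lower with EPS 3h (0 higher and 3 lower, and 1 higher and 4 lower, with library size only), and in KD myotubes 2 higher and 3 lower with EPS 0h and 3 higher and 4 lower with EPS 3h. *Ctnna1*, alpha-catenin, went from 683 to 804 CPM (log2FC 0.23, FDR = 0.00426) at EPS 0h in control myotubes, and *Boc*, a co-receptor related to *Cdon*, from 14.4 to 8.44 CPM (log2FC -0.76, FDR = 1.39e-05). The call of *Ctnna1* depended on the scaling: with library size only its log2FC was 0.16 and 0 genes of the list were called higher there. That of *Boc* was -0.84 with library size only.

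Among 18 further junctional molecules and their scaffolds, 1 was called higher and 3 lower with *Tug1* KD at Rest, 3 higher and 3 lower at EPS 0h and 2 higher and 3 lower at EPS 3h. *Pard3*, a polarity scaffold that binds JAM proteins, went from 72.6 to 98.1 CPM (log2FC 0.43, FDR = 0.0293) at Rest, and *Cxadr*, the coxsackievirus and adenovirus receptor of the same protein family, from 7.31 to 3.60 CPM (log2FC -1.02, FDR = 0.000184). In control myotubes 6 were called higher and 3 lower with EPS 0h and 8 higher and 5 lower with EPS 3h (6 higher and 6 lower, and 6 higher and 7 lower, with library size only), and in KD myotubes 7 higher and 4 lower with EPS 0h and 9 higher and 5 lower with EPS 3h. *Tjp1*, the junction scaffold ZO-1, went from 152 to 219 CPM (log2FC 0.52, FDR = 0.00570) at EPS 0h in control myotubes.

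Of 17 further integrin subunits, 3 were called higher and 1 lower with *Tug1* KD at Rest, 4 higher and 0 lower at EPS 0h and 2 higher and 0 lower at EPS 3h. *Itgb6* went from 17.4 to 32.5 CPM (log2FC 0.90, FDR = 0.00499) at Rest and *Itga9* from 1.56 to 5.08 CPM (log2FC 1.70, FDR = 0.0103). In control myotubes 2 were called higher and 4 lower with EPS 0h and 4 higher and 5 lower with EPS 3h (1 higher and 5 lower, and 2 higher and 9 lower, with library size only), and in KD myotubes 2 higher and 4 lower with EPS 0h and 3 higher and 5 lower with EPS 3h. *Itgb3* went from 42.2 to 20.5 CPM (log2FC -1.04, FDR = 5.88e-06) at EPS 3h in control myotubes, in the direction of *Itga7*, and *Itgb8* from 16.6 to 40.2 CPM (log2FC 1.27, FDR = 0.000385), against it. *Itgb1*, the beta subunit that pairs with *Itga7* and was chosen here after its values were seen, went from 1124 to 1365 CPM (log2FC 0.28, FDR = 0.0166) at EPS 3h in control myotubes, against the fall of *Itga7*, though with library size only its log2FC was 0.11 (FDR = 0.344). Of 23 laminin chains and integrin adaptors, 1 was called higher and 0 lower with *Tug1* KD at Rest, 5 higher and 0 lower at EPS 0h and 1 higher and 0 lower at EPS 3h. In control myotubes 5 were called higher and 7 lower with EPS 0h and 5 higher and 5 lower with EPS 3h (3 higher and 7 lower, and 5 higher and 15 lower, with library size only), and in KD myotubes 5 higher and 5 lower with EPS 0h and 8 higher and 7 lower with EPS 3h. *Lama5*, a laminin chain of basement membranes, went from 351 to 226 CPM (log2FC -0.64, FDR = 0.000116) at EPS 3h in control myotubes. Others of this list went up there. *Lama3*, at a low level, went from 0.615 to 2.48 CPM (log2FC 2.00, FDR = 4.28e-08) and *Fermt3* from 8.67 to 18.9 CPM (log2FC 1.12, FDR = 3.79e-05).

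Of 10 myogenic transcription factors and partners, which drive muscle differentiation, 1 was called higher and 2 lower with *Tug1* KD at Rest, 2 higher and 1 lower at EPS 0h and 2 higher and 1 lower at EPS 3h. *Mef2c* went from 94.8 to 199 CPM (log2FC 1.07, FDR = 0.000796) at Rest, *Myf6* from 2.13 to 0.588 CPM (log2FC -1.86, FDR = 0.000723) and *Myod1* from 83.6 to 70.0 CPM (log2FC -0.26, FDR = 0.0489). In control myotubes 5 were called higher and 1 lower with EPS 0h and 3 higher and 3 lower with EPS 3h (4 higher and 2 lower, and 2 higher and 4 lower, with library size only), and in KD myotubes 5 higher and 1 lower with EPS 0h and 3 higher and 4 lower with EPS 3h. *Myf6* went from 2.13 to 6.95 CPM (log2FC 1.71, FDR = 5.05e-05) at EPS 0h and to 5.86 CPM (log2FC 1.46, FDR = 0.000205) at EPS 3h in control myotubes. *Myf5* went from 13.5 to 33.3 CPM (log2FC 1.31, FDR = 3.54e-06) at EPS 0h and *Myod1* from 83.6 to 59.0 CPM (log2FC -0.50, FDR = 7.34e-06) at EPS 3h in control myotubes, where *Mymk* and *Mymx* did not pass the test.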

How the data were processed

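The authors deposited raw read counts per gene for 36 libraries, 6 in each of the 6 groups, as a table with no normalisation and as 1 file per library with the same values (36 of 36), and the table was used. Genes without a name (1492) took 0.0327% of the counts. CPM are counts per 1000000 reads counted. Per the labels and the study's methods, poly-A RNA was made into stranded libraries and sequenced as paired-end reads, quality was checked with FastQC 0.11.7, reads were trimmed with fastp 0.14.1 and aligned to GRCm39 with STAR 2.5. The counter and its strand setting are not given in the sources used here. Reads from exons shared by genes on opposite strands could be given to either.

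Groups followed the labels. Genes with at least 1 CPM in at least 12 libraries were kept (13995 of 55416), counts were scaled by the trimmed mean of M values (TMM), and all 6 groups were fitted together with edgeR 4.0.16 in R 4.3.3, using the robust quasi-likelihood F test with Benjamini-Hochberg adjustment over all genes kept (FDR under 0.05 was called). CPM values are TMM scaled, and RPKM used the union of GENCODE exons. The scripts were checked on simulated data. Alternatives were DESeq2 1.42.0, limma 3.58.1 with voom, library size only, no filter, the replicate number as a block, a term for the replicate set, each set of 3 replicates alone and the groups compared alone. Added after seeing the data were fits without replicate 3 of both EPS 3h groups and without Rest control replicate 4. Pathway lists were textbook lists. The text names all members, *Tug1*, up to 2 genes of each list with the largest rise and fall among called genes with at least 1 CPM in the higher group, and for each member the 3 genes with the highest Pearson's r. The members and lists were chosen with earlier results of these data known. Replicates are wells, per the study's methods. Replicate numbers came from the labels, and the correlation of same-numbered libraries' deviations from their group means was over 0.1 in 6 of 6 pairs for KD with control myotubes at EPS 0h and at EPS 3h, for EPS 0h and EPS 3h with Rest in control, for EPS 0h with Rest in KD and for EPS 3h with EPS 0h in KD myotubes, and in 5 of 6 for KD with control at Rest, EPS 3h with Rest in KD and EPS 3h with EPS 0h in control myotubes. The former are the comparisons where all same-numbered libraries correlated. The replicate set was not removed for this, so the correlation cannot tell pairing by number from membership of the same set.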

Additional observations from a re-analysis of the deposited data

Results flagged for a closer look

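1 value lay far from the other libraries of its group among 42 groups of 6 libraries examined, where chance alone would set apart about 1 in 20. For *Itga7* in Rest control the highest library, replicate 4, had 1889 CPM, and its gap to the next library, at 1661 CPM, was 0.684 of the group's range, above Dixon's critical value at the 95% level. Without this library the log2FC of *Itga7* was -0.44 at EPS 0h (FDR = 0.0308) and -0.45 at EPS 3h in control myotubes (FDR = 0.0205).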

How the results depend on the processing

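The rise of *Cdh2* with *Tug1* KD in 3 conditions, that of *Jam2* at Rest and EPS 0h, and the fall of *Itga7* with EPS in control myotubes at both times and in KD myotubes at EPS 3h kept their direction and their call under every alternative tried. The fall of *Itga7* in KD myotubes was lost at EPS 0h in replicates 4 to 6 alone, the call of *Cdh2* at EPS 3h in control was lost with library size only, with no filter and in replicates 1 to 3 alone, and that of *Mymx* at EPS 3h in KD myotubes was lost in replicates 4 to 6 alone and without replicate 3 of EPS 3h. The cause was not tested, save that sets of 3 hold fewer libraries. Over all alternatives 84 counts of called members stayed within 1.5 times of the reported one and 24 did not. With DESeq2 2 of 7 were called for KD at EPS 3h, 2 for EPS 0h against Rest in control and 3 for EPS 0h against Rest in KD. With the replicate block 2 of 7 were called for KD at EPS 3h, 3 for EPS 0h against Rest in control, 4 for EPS 3h against Rest in control, 3 for EPS 0h against Rest in KD and 1 for EPS 3h against EPS 0h in KD. With the term for the replicate set 2 of 7 were called for KD at EPS 3h, 3 for EPS 0h against Rest in control and 3 for EPS 0h against Rest in KD. With replicates 1 to 3 alone 2 of 7 were called for EPS 0h against Rest in control, 1 for EPS 3h against Rest in control and 4 for EPS 0h against Rest in KD. With no filter on low counts 1 of 7 was called for EPS 3h against Rest in control and 1 for EPS 3h against EPS 0h in KD. With limma-voom 2 of 7 were called for EPS 0h against Rest in KD. With library size only 2 of 7 were called for EPS 0h against Rest in KD, 4 for EPS 3h against Rest in KD and 1 for EPS 3h against EPS 0h in KD. With replicates 4 to 6 alone 0 of 7 were called for EPS 0h against Rest in KD and 1 for EPS 3h against Rest in KD. With the fit to the groups compared alone 2 of 7 were called for EPS 0h against Rest in KD. With replicate 3 of EPS 3h left out 1 of 7 was called for EPS 3h against Rest in KD. Where not all same-numbered libraries correlated, the replicate block gave *Cdh15* -0.41 for EPS 3h against Rest in KD (FDR = 0.00226), and 6 of 10 alternatives in all called this value. Over the values that the report gives for single members, 45 of their values under an alternative had the other sign, and none of these was called, before or after. Replicates 4 to 6 alone gave *Mymx* -0.18 for KD at Rest, *Cdh15* 0.0065 for KD at EPS 3h, *Mymx* 0.016 and *Cdh2* -0.028 for EPS 0h against Rest in control, *Jam3* 0.020 for EPS 3h against Rest in control, *Jam2* 0.083 for EPS 3h against EPS 0h in control, *Mymk* 0.10, *Mymx* 0.079 and *Cdh2* -0.11 for EPS 0h against Rest in KD, *Mymk* 0.14 and *Jam2* -0.073 for EPS 3h against Rest in KD, *Itga7* -0.091 for EPS 3h against EPS 0h in KD, *Jam2* 0.042 for the EPS 0h interaction. Replicates 1 to 3 alone gave *Cdh15* 0.14 for KD at Rest, *Mymk* -0.0043, *Mymx* 0.18 and *Jam3* 0.020 for KD at EPS 0h, *Mymx* 0.24 for KD at EPS 3h, *Mymk* -0.028 for EPS 3h against Rest in control, *Itga7* 0.065 for EPS 3h against EPS 0h in control, *Cdh2* 0.043 and *Jam3* 0.085 for EPS 3h against Rest in KD, *Cdh2* 0.010 and *Itga7* -0.090 for the EPS 0h interaction, *Itga7* -0.00094 for the EPS 3h interaction. Rest control replicate 4 left out gave *Cdh15* 0.026 for KD at Rest, *Mymx* 0.11 for EPS 0h against Rest in control, *Jam2* 0.033 for the EPS 0h interaction. Limma-voom gave *Mymx* 0.017 for KD at EPS 0h, *Jam2* 0.010 for the EPS 0h interaction. The replicate block gave *Mymx* 0.020 for KD at EPS 0h, *Jam2* -0.0019 for EPS 3h against Rest in KD, *Jam2* 0.00021 for the EPS 0h interaction. The term for the replicate set gave *Mymx* 0.019 for KD at EPS 0h. Library size only gave *Mymk* -0.14 and *Jam2* -0.016 for EPS 3h against Rest in control, *Cdh2* -0.045 for EPS 0h against Rest in KD, *Jam2* -0.15 for EPS 3h against Rest in KD, *Itga7* -0.073 for EPS 3h against EPS 0h in KD. No filter on low counts gave *Mymk* -0.056 for EPS 3h against Rest in control, *Cdh2* -0.027 for EPS 0h against Rest in KD, *Jam2* -0.14 for EPS 3h against Rest in KD, *Itga7* -0.071 for EPS 3h against EPS 0h in KD. Replicate 3 of EPS 3h left out gave *Mymk* -0.0030 for EPS 3h against Rest in control. The fit to the groups compared alone gave *Itga7* -0.0015 for EPS 3h against EPS 0h in KD. Without Rest control replicate 4 *Mymk* had 0.084 for EPS 3h against Rest in control. Depth limits *Jam3*, with at most 255 counts in a library.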
